A study of Mus musculus with 3 samples.

Results

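The cells analysed were donor T cells from the spleens of mice with graft-versus-host disease, and the genes described are *Chchd10* together with *Chchd1*, *Chchd2*, *Chchd3* and *Chchd4*, 5 of the 18029 genes in the count table. The genes were listed by name. The list was chosen by 1 measured value, the level of *Chchd10* in CD4+ T cells at the higher dose of cyclosporine (CSA) against saline, so the values of that gene are a description and carry no test, whereas *Chchd1* to *Chchd4* were tested in a fit across all genes. All 5 passed the filter on low counts in CD4+ and in CD8+ T cells.

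B6D2F1 mice were irradiated and transplanted with B6 bone marrow, polyclonal B6 T cells and a small number of TEa T cells, which carry 1 transgenic T cell receptor. The 3 groups then received saline, a lower CSA dose of 5 mg/kg or a higher one of 50 mg/kg every day, the first on day 0 and the last on day 6. CSA blocks the phosphatase calcineurin and thereby the activation of NFAT transcription factors. Spleens were taken on day 7 from 6 mice per group and combined in pairs, so each group held 3 pools, and the sorted CD4+ and CD8+ fractions of each group were mixed in equal numbers and sequenced in 1 droplet capture. Since every pool of a group came from the same capture, a capture and its treatment cannot be told apart, and p-values measure the spread between pools within captures.

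After leaving out 280 TEa cells, 20924 cells were summed, between 692 and 1615 cells and between 3994968 and 11454636 UMIs (unique molecular identifiers, the counts of captured transcripts) per pool and lineage. The median number of UMIs per cell rose with dose, from 3097 to 5980 in CD4+ and from 4108 to 7183 in CD8+ T cells. *Cd8a* had 0 UMIs in all CD4+ cells and *Cd4* had 0 UMIs in all CD8+ cells, but *Cd8b1*, the other CD8 chain, had 4074 UMIs in the CD4+ cells, at 141 to 153 CPM in the saline pools and 20.8 to 25.8 CPM at 50 mg/kg. The part of these *Cd8b1* counts in the results was not tested. The T cell gene *Cd3d* lay between 997 and 1294 CPM (counts of a gene scaled to a fixed total of UMIs) in the CD4+ pools. Of 20986 distinct cell barcodes, 218 were found in more than 1 capture. In such sums, fewer expressing cells and less RNA per cell cannot be told apart.

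Twin CX9C proteins are small, nuclear-encoded proteins of the mitochondrial intermembrane space. Each holds a pair of motifs in which 2 cysteines are spaced by 9 residues. The proteins enter mitochondria unfolded and are trapped there when CHCHD4, the oxidoreductase also called MIA40, forms the disulfide bonds between these cysteines. CHCHD10 and its paralog CHCHD2 form complexes with each other near the inner membrane and are linked to cristae shape and respiratory chain function. Variants of the human genes are known from motor neuron disease and myopathy for CHCHD10 and from Parkinson disease for CHCHD2. CHCHD1 is a protein of the small subunit of the mitochondrial ribosome, and CHCHD3 (MIC19) is part of MICOS, the complex that holds cristae junctions. In T cells, mitochondrial protein import and respiration rise on activation and also serve quiescent and memory cells.

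In the GENCODE annotation of GRCm38 (mm10), *Chchd10* (ENSMUSG00000049422.7) lies on the plus strand at chr10:75933130-75937747. It is overlapped on the minus strand by *Mmp11* at chr10:75923222-75936496 and, at its end, by *Gm867* at chr10:75937723-75940672. These overlapping genes had few counts, 18 UMIs of *Mmp11* and 46 of *Gm867* in all CD4+ cells, and 10 and 24 in all CD8+ cells. *Chchd1* lies at chr14:20703006-20704425 on the plus strand. The others are on the minus strand, *Chchd2* at chr5:129881156-129887470, *Chchd3* at chr6:32790976-33060260 and *Chchd4* at chr6:91462172-91473546.

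The promoters of *Chchd10* and *Chchd1*, the former rising mainly at the higher dose and the latter already at the lower dose, differed in base composition. The sequences are from RefSeq on GRCm38.p6 and span 250 bases before to 50 bases after the start of the gene, on the plus strand, at chr10:75932880-75933179 for *Chchd10* and at chr14:20702777-20703076 for *Chchd1*. Capitals mark the octamer ATGCAAAT in *Chchd10* and every CpG in *Chchd1*.
Chchd10: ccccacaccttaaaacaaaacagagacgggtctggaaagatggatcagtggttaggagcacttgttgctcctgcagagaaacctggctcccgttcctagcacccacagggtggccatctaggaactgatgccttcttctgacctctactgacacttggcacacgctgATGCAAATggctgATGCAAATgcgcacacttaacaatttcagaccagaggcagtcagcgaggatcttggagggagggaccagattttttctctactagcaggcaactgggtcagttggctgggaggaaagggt
Chchd1: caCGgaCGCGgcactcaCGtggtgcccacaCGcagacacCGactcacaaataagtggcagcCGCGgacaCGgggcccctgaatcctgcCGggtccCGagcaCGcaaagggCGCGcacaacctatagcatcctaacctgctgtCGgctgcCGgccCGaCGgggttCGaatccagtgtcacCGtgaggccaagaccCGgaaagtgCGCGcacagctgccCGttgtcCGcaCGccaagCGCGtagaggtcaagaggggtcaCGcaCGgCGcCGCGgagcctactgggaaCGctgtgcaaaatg

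ATGCAAAT is the motif bound by POU-domain factors such as the octamer-binding proteins of lymphocytes. It occurred 2 times in the *Chchd10* promoter, beginning at -83 and -70 relative to the start, and not in the windows of *Chchd1*, *Chchd3* or *Chchd4*. On either strand, 1.74% of 32851 promoters held at least 1 copy and 0.107% held at least 2. The octamer was searched for after the sequence had been read. The letters TGATGCAA, which overlap both octamers, were searched for too. They occurred 2 times in the *Chchd10* window and not in those of *Chchd1*, *Chchd3* or *Chchd4*. At least 1 copy was held by 0.895% of promoters and at least 2 by 0.0061%. Which factor, if any, binds these stretches was not tested. GGAAA, the core letters of NFAT sites, occurred 2 times in the *Chchd10* window on either strand, 1 time in *Chchd1* and in *Chchd4*, and not in *Chchd3*. Of all promoters, 61.3% held at least 1 copy and 26.7% at least 2. The *Chchd10* window had 5 CpGs, against 34 in *Chchd1*, 15 in *Chchd3*, 30 in *Chchd4* and a median of 7 over all promoters. These are matches of letters, and the promoter of *Chchd2* was not analysed here.

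*Chchd10* was several times higher at 50 mg/kg than with saline in both lineages, and at that dose higher in CD4+ than in CD8+ T cells. The 3 saline pools of CD4+ T cells had 18.9, 21.2 and 16.6 CPM after TMM scaling, a scaling that sets the typical gene to no change. The pools of 5 mg/kg had 24.3, 28.0 and 24.4 CPM, and those of 50 mg/kg had 121, 112 and 108 CPM. The pools of 50 mg/kg lay far from all others, and those of 5 mg/kg lay just above saline. The log2 change at 50 mg/kg was 2.59 ± 0.084 (SE, n = 3 pools per group), or 6.01-fold, and at 5 mg/kg it was 0.43 ± 0.11. By this change at 50 mg/kg, *Chchd10* stood at place 33 of 10568 genes in CD4+ T cells, which describes the value by which it was chosen. For the lower dose it stood at place 1817.

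CD8+ T cells of the saline pools had 21.3, 23.8 and 21.1 CPM of *Chchd10*. The lower dose gave 24.9, 26.6 and 24.3 CPM, and the higher dose 78.4, 74.5 and 65.7 CPM. Here too only the pools of 50 mg/kg stood clearly apart. The log2 change was 1.71 ± 0.080 at 50 mg/kg, 3.28-fold, and 0.19 ± 0.097 at 5 mg/kg, and *Chchd10* stood at place 171 of 10841 genes at 50 mg/kg. The change at 50 mg/kg was smaller in CD8+ than in CD4+ T cells by 0.90 ± 0.10 on the log2 scale (CD8+ minus CD4+, -0.90). With scaling by library size, which leaves the median gene at -0.45 in CD4+ and -0.53 in CD8+ T cells at 50 mg/kg, the changes of *Chchd10* at that dose were 2.15 and 1.18. For the lower dose they became 0.07 in CD4+ and -0.24 in CD8+ T cells, so the direction at the lower dose in CD8+ T cells turned with the scaling.

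**Figure D1:**
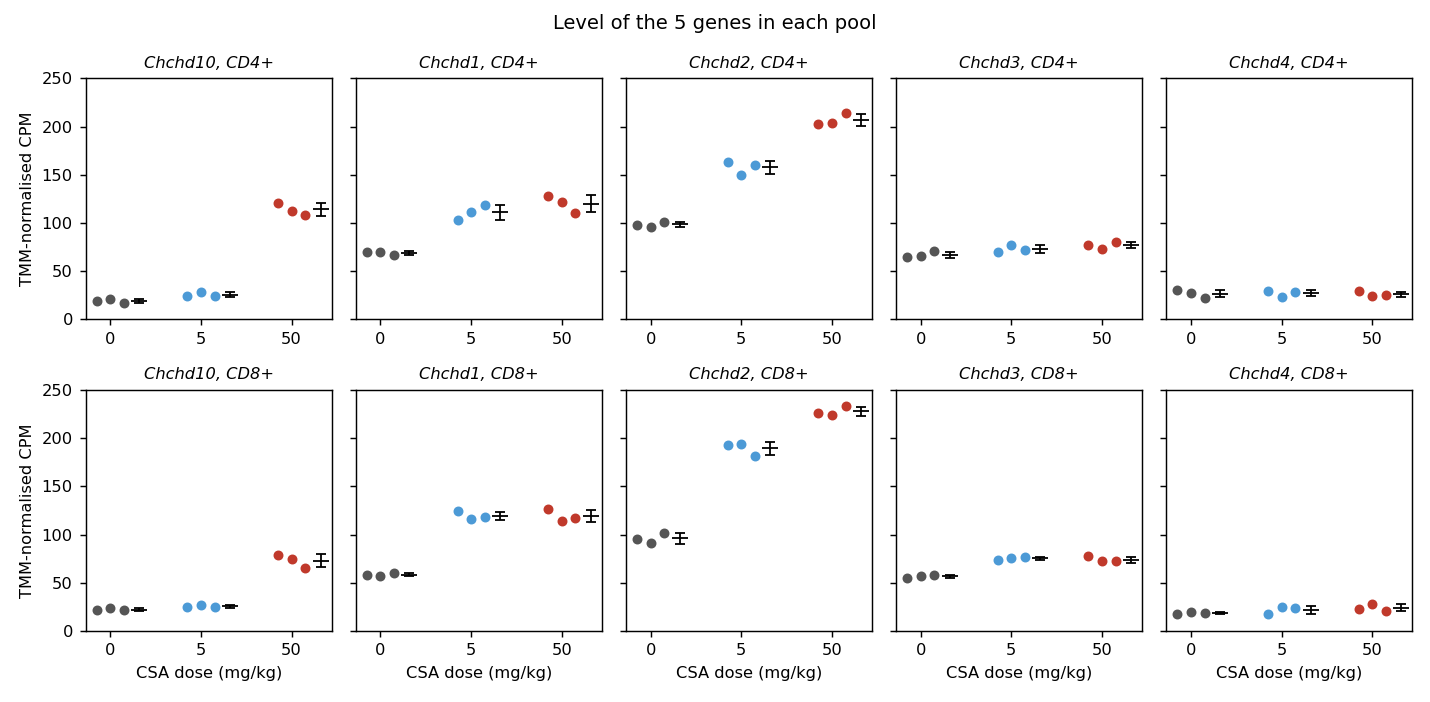
TMM-normalised CPM (y axis) of each of the 5 genes against the CSA dose in mg/kg (x axis, 0 for saline), CD4+ T cells above and CD8+ T cells below. Each point is 1 pool, and the bar beside them is the mean ± SD of 3 pools; *Chchd10* stays below 30 CPM at the lower dose and reaches 121 CPM in CD4+ and 78.4 CPM in CD8+ T cells at the higher dose, whereas *Chchd1* and *Chchd2* are already above saline at 5 mg/kg.

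More cells held a *Chchd10* transcript at 50 mg/kg. Because cells at that dose were more deeply sequenced, each cell was thinned to 2000 UMIs, which left out 80 to 452 shallower CD4+ cells and 8 to 121 CD8+ cells per group. After thinning, 4.21% ± 0.275 (SD, n = 3) of CD4+ cells held a UMI with saline, 4.11% ± 0.193 with the lower dose and 14.4% ± 0.543 with the higher dose. The shares of CD8+ cells were 4.77% ± 0.418, 4.21% ± 0.255 and 9.96% ± 0.372. The shares at 5 mg/kg were no higher than with saline, whereas the TMM-scaled CPM were. Without thinning the shares at 50 mg/kg were 34.3% of CD4+ and 30.6% of CD8+ cells, against 7.12% and 10.9% with saline. Most cells with a transcript had a single UMI, 249 of 290 CD4+ cells with saline and 599 of 1051 at 50 mg/kg, and the most in 1 cell was 14. No cell type known to lack *Chchd10* was available to set a level of free RNA.

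*Chchd10* was not confined to 1 kind of T cell. The study sorted CD4+ cells into 13 clusters and CD8+ cells into 9, and several marker genes led where those names place them. *Foxp3* was highest in the regulatory cluster (C11), *Cxcr5* in the follicular helper cluster (C4) and *Ccr7* in both naive clusters. Other markers led elsewhere. Over all groups, CD4+ *Tcf7* was higher in C4 (708 CPM) than in the Tcf7hi cluster C2 (400 CPM). CD8+ *Havcr2* was higher in the cycling cluster C4 (362 CPM) than in the exhausted cluster C8 (217 CPM). With saline, in CPM without TMM scaling, *Chchd10* was highest among well-sampled CD4+ clusters in naive cells (C9, 49.7 ± 13.9, SD, n = 3 pools) and Tcf7hi precursor-like cells (C2, 46.9 ± 2.31), whose pools overlapped. It was lowest in cycling cells of C5 (10.3 ± 7.33) and in both effector clusters (C0, 14.9 ± 4.95; C1, 14.2 ± 2.39). Naive cells also had the most in CD8+ T cells (C7, 64.4 ± 14.5).

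At 50 mg/kg the order was different. The CD4+ cycling cluster C3 was highest, with 16.6, 31.1 and 27.2 CPM in the saline pools against 165, 129 and 152 CPM. The Cd226hi effector cluster C0 came next, at 14.0, 20.2 and 10.5 CPM with saline against 112, 144 and 104 CPM, and its pools overlapped those of C3. The cycling cluster C5 went from 7.71, 18.6 and 4.61 CPM to 99.7, 98.4 and 95.1 CPM. In these 3 clusters no pool of 50 mg/kg came near a saline pool. Cytotoxic CD4+ cells (C7) had 22.7 ± 6.08 CPM with saline, 53.8 ± 1.53 CPM at the lower and 109 ± 40.0 CPM at the higher dose, and were the CD4+ cluster with the largest ratio at the lower dose (2.27 over group sums).

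Taking the sums of a group, the ratio of 50 mg/kg to saline was above 1 in 12 of 13 CD4+ clusters, from 0.573 in regulatory T cells (C11) to 9.14 in C5, with a median of 2.93. Among CD8+ clusters it was above 1 in 8 of 9 clusters, from 0.845 in naive cells (C7) to 2.81 in Cd226hi effectors (C0), with a median of 1.66. The cycling CD8+ cluster C2 had the highest level at 50 mg/kg, at 108, 90.9 and 68.6 CPM, against 38.7, 34.5 and 33.4 CPM in the saline pools. Naive CD8+ cells overlapped between the doses, at 57.6, 81.2 and 54.6 CPM with saline against 60.7, 58.6 and 47.5 CPM at the higher dose. For the regulatory (C11) and Th17 (C12) clusters only 1 saline pool had at least 10 cells, so their ratios have no replicate check. The same holds for the cycling CD8+ cluster C4, which had 20 cells and 8 *Chchd10* UMIs at 50 mg/kg and no pool of at least 10 cells. For the lower dose the ratio to saline was above 1 in 5 of 13 CD4+ and 2 of 9 CD8+ clusters.

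**Figure D2:**
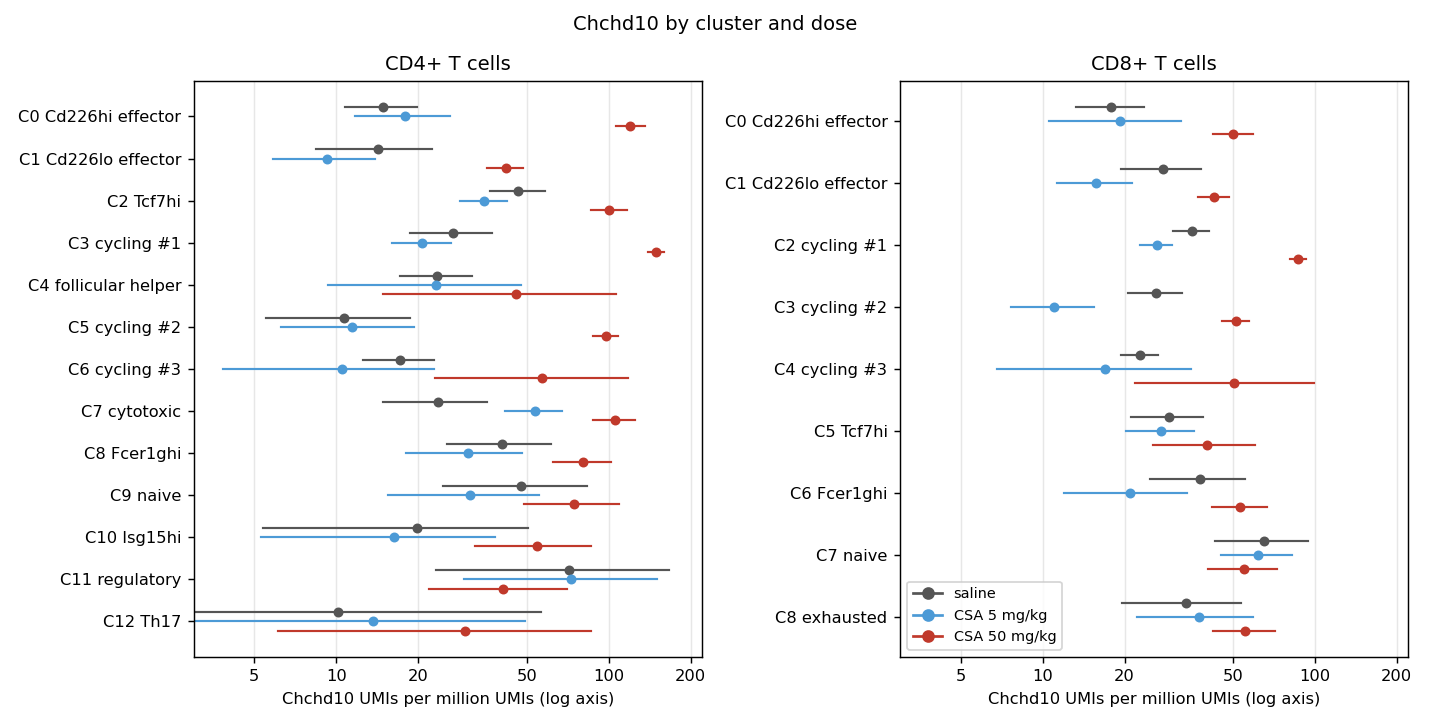
*Chchd10* level in CPM without TMM scaling (x axis, log scale) in each CD4+ (left) and CD8+ (right) cluster, summed over the cells of a group. Points are group sums and bars exact Poisson 95% intervals that cover counting error only; at 50 mg/kg C3 and C0 lead in CD4+ T cells, and the naive CD8+ cluster and the regulatory CD4+ cluster show no higher level than with saline.

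The share of cells in each cluster also differed between groups. Holding the clusters at their saline shares, the ratio of 50 mg/kg to saline for *Chchd10* without TMM scaling was 3.81 in CD4+ T cells, against 4.43 observed, and 2.09 in CD8+ T cells, against 2.25. Outside the cycling clusters the log2 change with TMM scaling was 2.04 in CD4+ and 1.27 in CD8+ T cells. TEa cells, few in number, had 10 *Chchd10* UMIs in 123 cells with saline (18.9 CPM, Poisson 95% interval 9.04 to 34.7), 21 UMIs in 130 cells at 5 mg/kg (27.4 CPM, 17.0 to 41.9) and 14 UMIs in 27 cells at 50 mg/kg (60.9 CPM, 33.3 to 102). The intervals of saline and 50 mg/kg overlapped slightly, and 10 of the 14 UMIs came from 1 pool.

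Markers of other cells moved with dose as well. The summed level of 4 plasma cell genes was 244 to 264 CPM in the CD4+ saline pools against 339 to 368 CPM at the higher dose, and 217 to 231 against 597 to 745 CPM in CD8+ cells, mostly *Ighm* and *Jchain*. The erythroid list summed to 7.31 to 17.8 CPM with saline against 29.5 to 39.2 CPM in CD4+ cells. The B cell list overlapped in CD4+ cells, at 104 to 140 and 110 to 125 CPM, but in CD8+ cells it was lower at 50 mg/kg, at 41.0 to 69.0 CPM against 95.2 to 124 CPM with saline. Cells with no UMI of 20 such markers, *Xbp1* not among them, were 1862 CD4+ cells with saline (45.9%) and 603 at 50 mg/kg (19.7%). In these cells *Chchd10* was 22.1, 23.7 and 15.5 CPM with saline against 86.0, 74.5 and 63.9 CPM at the higher dose, a ratio of 3.65. This ratio was 2.43 in CD8+ cells, of which 40.9% with saline and 14.8% at 50 mg/kg were kept. Deeper cells are more likely to hold a marker UMI, so the cells kept were not selected alike in the groups.

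*Chchd2*, the paralog of *Chchd10*, rose at both doses in both lineages. The CD4+ pools had 98.2, 95.8 and 101 CPM with saline, then 163, 150.0 and 160.2 CPM at the lower dose, then 202, 203 and 214 CPM at the higher dose. The CD8+ pools had 95.01, 91.0 and 102 CPM, then 193, 194 and 182 CPM, then 226, 224 and 233 CPM. The groups did not overlap at any step in either lineage. Such separation from saline was frequent. At 50 mg/kg 3769 of 10568 genes in CD4+ and 4064 of 10841 in CD8+ T cells were higher without overlap. At 5 mg/kg these were 3029 and 3527 genes. The CD4+ log2 change was 0.68 ± 0.052 at 5 mg/kg (adjusted p = 5.45e-10, edgeR quasi-likelihood test with Benjamini-Hochberg adjustment over all genes, as for every adjusted p here) and 1.07 ± 0.049 at 50 mg/kg (adjusted p = 4.29e-14). The CD8+ log2 change was 0.98 ± 0.050 (adjusted p = 1.50e-11) and 1.25 ± 0.049 (adjusted p = 1.28e-13). The further rise from 5 to 50 mg/kg was 0.39 ± 0.048 in CD4+ (adjusted p = 1.23e-06) and 0.27 ± 0.048 in CD8+ T cells (adjusted p = 0.000216). With clusters held at their saline shares and no TMM scaling, the ratio of 5 mg/kg to saline was 1.06 in CD4+ T cells, against 1.25 observed. In CD8+ T cells it was 1.25, against 1.46. The median log2 change within clusters at 5 mg/kg, with TMM scaling, was 0.22 in CD4+ and 0.62 in CD8+ T cells.

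Calls were frequent in these data, so single calls are to be read against the share of all genes. With the higher dose, 34.7% of 10568 genes tested in CD4+ T cells were called higher than with saline and 35.8% lower, as were 37.1% and 36.9% of 10841 genes in CD8+ T cells. With the lower dose these shares were 26.1% and 25.6% in CD4+ and 29.9% and 30.3% in CD8+ T cells. Between both doses, 41.2% of genes in CD4+ and 41.0% in CD8+ T cells were called in either direction. With library size scaling the split moved strongly to lower calls, from 3669 higher and 3785 lower genes to 1599 and 6239 in CD4+ T cells at 50 mg/kg, and from 2758 and 2709 to 926 and 5718 at 5 mg/kg. The CD8+ split moved from 4021 and 4003 to 1690 and 6794 at 50 mg/kg, and from 3241 and 3282 to 1180 and 6270 at 5 mg/kg. *Chchd2* remained higher with that scaling, by 0.63 in CD4+ and 0.72 in CD8+ T cells at 50 mg/kg.

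*Chchd1*, of the mitochondrial ribosome, rose at 5 mg/kg and showed no further change past the test at 50 mg/kg. The CD4+ pools had 69.8, 69.4 and 66.4 CPM with saline, then 103, 111 and 119 CPM at the lower dose, then 128, 122 and 110 CPM at the higher dose. The CD8+ pools had 58.1, 56.9 and 60.3 CPM, then 124, 117 and 118 CPM, then 127, 114 and 117 CPM. The pools of both doses overlapped each other and lay above saline. At 50 mg/kg the pools of 3769 of 10568 genes in CD4+ and 4064 of 10841 in CD8+ T cells lay above saline. At 5 mg/kg those of 3029 and 3527 genes did. The log2 change in CD4+ T cells was 0.71 ± 0.068 at 5 mg/kg (adjusted p = 2.18e-08) and 0.81 ± 0.065 at 50 mg/kg (adjusted p = 4.89e-10). For CD8+ T cells it was 1.03 ± 0.056 (adjusted p = 3.13e-11) and 1.03 ± 0.054 (adjusted p = 7.80e-12). Between the doses it was 0.10 ± 0.063 in CD4+ T cells (adjusted p = 0.214) and -0.0014 ± 0.053 in CD8+ T cells (adjusted p = 0.989). With library size scaling *Chchd1* was still higher at 50 mg/kg, by 0.37 in CD4+ and 0.50 in CD8+ T cells.

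*Chchd3*, the MICOS subunit, changed little, and the direction depended on the scaling. The CD4+ values were 64.3, 65.7 and 70.4 CPM with saline, then 69.7, 77.1 and 72.0 CPM at the lower dose, then 77.2, 73.3 and 79.9 CPM at the higher dose. The CD8+ values were 54.9, 57.4 and 57.7 CPM, then 73.7, 76.0 and 76.5 CPM, then 77.4, 72.1 and 72.1 CPM. The CD4+ pools of 5 mg/kg overlapped saline, and the other dosed pools lay above it. So did those of 3769 of 10568 genes in CD4+ and 4064 of 10841 in CD8+ T cells at 50 mg/kg. At 5 mg/kg the number in CD8+ T cells was 3527. With TMM scaling the log2 change at 50 mg/kg was 0.20 ± 0.063 in CD4+ (adjusted p = 0.00826) and 0.38 ± 0.053 in CD8+ T cells (adjusted p = 3.94e-06), but with library size scaling it was -0.24 (adjusted p = 0.00198) and -0.15 (adjusted p = 0.0163). With the lower dose it was 0.12 ± 0.066 in CD4+ (adjusted p = 0.124) and 0.41 ± 0.055 in CD8+ T cells (adjusted p = 4.21e-06), and -0.23 and -0.01 with library size scaling. *Chchd3* therefore moved up relative to the median gene while its share of all UMIs did not rise.

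*Chchd4*, the import receptor, showed no change past the test in CD4+ T cells with TMM scaling, whereas with library size scaling it was -0.46 at 50 mg/kg (adjusted p = 0.00125) and -0.32 at 5 mg/kg (adjusted p = 0.0252). The CD4+ pools had 30.4, 26.9 and 22.4 CPM with saline, then 29.7, 23.3 and 28.1 CPM at the lower dose, then 28.8, 23.9 and 25.2 CPM at the higher dose, and all groups overlapped. The log2 change was -0.02 ± 0.115 at 50 mg/kg (adjusted p = 0.884) and 0.04 ± 0.12 at 5 mg/kg (adjusted p = 0.810). The CD8+ pools had 17.2, 19.0 and 18.5 CPM with saline, then 17.0, 25.0 and 23.8 CPM at the lower dose, then 22.9, 28.0 and 20.9 CPM at the higher dose. The pools of 50 mg/kg lay above saline, as did those of 4064 of 10841 genes in CD8+ T cells. The log2 change was 0.38 ± 0.12 (adjusted p = 0.0100), whereas at 5 mg/kg it was 0.29 ± 0.13 (adjusted p = 0.0637). Without the second pool of 50 mg/kg the CD8+ change was 0.26 (adjusted p = 0.0795), and with library size scaling it was -0.15 (adjusted p = 0.289).

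**Figure D3:**
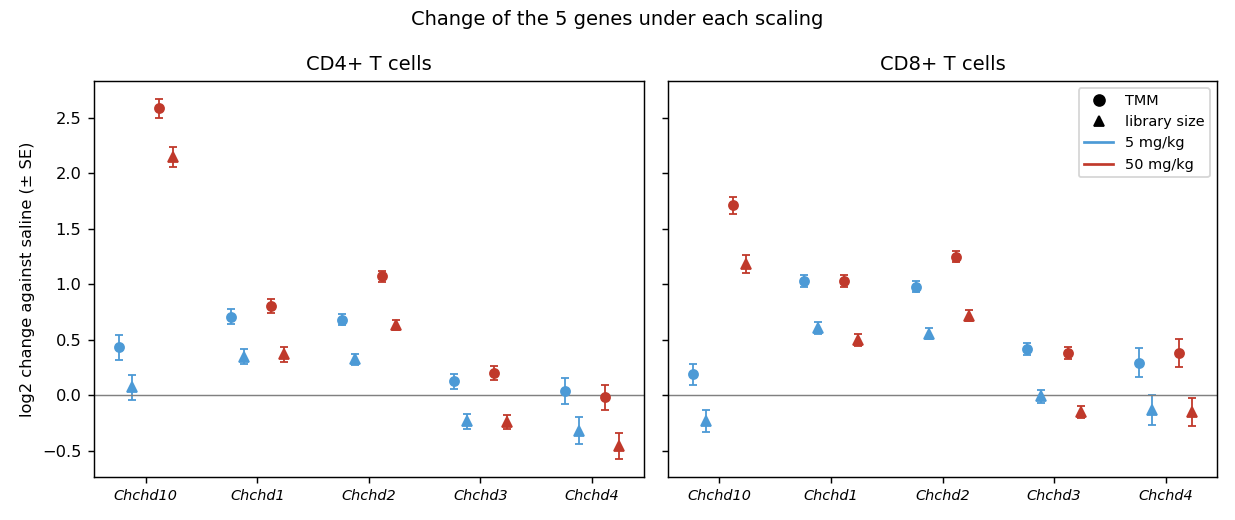
Log2 change against saline (y axis, ± SE, n = 3 pools per group) of the 5 genes with TMM scaling (circles) and with scaling by library size (triangles), at 5 mg/kg (blue) and 50 mg/kg (red), in CD4+ (left) and CD8+ (right) T cells. *Chchd1* and *Chchd2* stay above 0 with both scalings at both doses and *Chchd10* does at 50 mg/kg; *Chchd3* turns from above to below 0 with library size scaling in both lineages, as do *Chchd4* (except in CD4+ T cells at 50 mg/kg, where it is below 0 with both) and *Chchd10* in CD8+ T cells at 5 mg/kg.

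The changes of the 4 tested genes were nominally larger in CD8+ than in CD4+ T cells, the opposite order to *Chchd10*, but of the differences tested 1 passed. At 5 mg/kg the difference for *Chchd2* (CD8+ minus CD4+) was 0.27 ± 0.067 (adjusted p = 0.0222), in a comparison that called 3.65% of 11001 genes in either direction. The others at that dose were 0.29 ± 0.085 for *Chchd1* (adjusted p = 0.0550), 0.26 ± 0.082 for *Chchd3* (adjusted p = 0.0844) and 0.22 ± 0.18 for *Chchd4* (adjusted p = 0.616). At 50 mg/kg, where 19.8% of genes were called, the differences were 0.20, 0.15, 0.15 and 0.37 for *Chchd1* to *Chchd4*, with adjusted p = 0.0873, 0.0961, 0.184 and 0.138. The *Chchd2* call was lost without the first or second saline pool or the first or second pool of 5 mg/kg, with adjusted p between 0.0128 and 0.159 over all pools left out.

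Within clusters, the higher *Chchd2* was seen across subsets. At 50 mg/kg it passed the test as higher in 7 of 11 CD4+ clusters tested and 7 of 8 CD8+ clusters, and as lower in none, where 14.8% of gene tests were higher and 15.4% lower over the CD4+ clusters, and 21.3% and 22.1% over the CD8+ clusters. Its log2 change was 1.25 ± 0.13 in CD4+ Cd226hi effectors (C0, adjusted p = 5.19e-12) and 1.28 ± 0.12 in the CD8+ ones (C0, adjusted p = 1.45e-15). *Chchd1* was higher in 4 of 9 CD4+ and 6 of 8 CD8+ clusters, with 1.06 ± 0.17 in cycling CD4+ cells (C5, adjusted p = 4.59e-06) and 1.35 ± 0.27 in exhausted CD8+ cells (C8, adjusted p = 0.000289). *Chchd3* was higher in 0 of 9 CD4+ and 3 of 8 CD8+ clusters. With library size scaling *Chchd2* was higher in 5 CD4+ and 4 CD8+ clusters and *Chchd1* in 3 and 3. *Chchd3* was then higher in 0 clusters of either lineage and lower in 2 CD4+ clusters. *Chchd4* was lower in 1 of 5 CD4+ clusters, the Cd226lo effectors (C1, -0.89 ± 0.28, adjusted p = 0.0193), and higher in 1 of 6 CD8+ clusters, the cycling cells of C2 (0.61 ± 0.18, adjusted p = 0.00675), a call that was lost with library size scaling. *Chchd10* had a positive log2 change in 7 of 7 CD4+ clusters that passed the filter, from 1.23 to 3.55, and in 7 of 8 CD8+ clusters, from -0.26 in naive cells to 2.04. The CD4+ count is no independent check, because the gene was chosen by its level in these cells at the higher dose. The filter also favoured a rise, since counts from that dose alone could carry the gene past it. Cluster C5, for example, gave 358 *Chchd10* UMIs at the higher dose, against 14 at the lower dose and 12 without CSA.

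The clusters with the highest level were partly shared between the genes. *Chchd4* was highest in cytotoxic CD4+ cells (C7), at 78.0 ± 17.4 CPM with saline against 76.7 ± 14.5 CPM at 50 mg/kg without TMM scaling, and in exhausted CD8+ cells (C8), at 74.2 ± 34.7 and 54.3 ± 5.36 CPM. Among clusters with 3 saline pools, *Chchd1* was highest in cycling CD4+ cells (C3, 138 ± 24.0 CPM) and in naive CD8+ cells (C7, 117 ± 20.9 CPM), the CD8+ cluster where *Chchd2* (183 ± 11.1 CPM) and *Chchd10* were highest too. In CD4+ T cells with saline *Chchd2* was highest in Cd226lo effectors (C1, 175 ± 22.8 CPM), the cluster where *Chchd10* was near its lowest.

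After thinning, the share of cells with a *Chchd2* UMI was 20.4%, 24.8% and 30.7% with rising dose in CD4+ and 21.5%, 29.2% and 32.1% in CD8+ T cells. For *Chchd1* it was 14.1%, 17.7% and 18.6%, and 13.2%, 18.4% and 17.9%. For *Chchd3* it was 14.9%, 12.4% and 12.5%, and 13.1%, 12.9% and 11.8%. For *Chchd4* it was 6.00%, 4.42% and 4.17%, and 4.11%, 3.70% and 3.67%. Per fixed number of UMIs, the first pair thus had more positive cells with CSA and the second pair did not.

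The other genes of the same import pathway were read from lists of known members. Of 19 other twin CX9C genes, which include assembly factors and subunits of the respiratory chain, 16 of 18 tested in CD4+ T cells were higher at 50 mg/kg and 0 lower, with a median log2 change of 0.95, against -0.01 over all genes. Among CD8+ T cells 17 of 19 were higher and 0 lower, with a median of 1.14. Over all genes 34.7% were higher and 35.8% lower in CD4+, and 37.1% and 36.9% in CD8+ T cells. *Cox17*, the copper chaperone of cytochrome c oxidase, went from 91.8 ± 4.41 to 229 ± 12.2 CPM in CD4+ T cells (log2 change 1.32 ± 0.055, adjusted p = 8.29e-15) and rose by 1.51 in CD8+ T cells. *Chchd7* rose by 1.24 in CD4+ and 1.48 in CD8+ T cells. *Chchd6*, a MICOS subunit, and *Coa5* did not pass in CD4+ T cells. For the lower dose the counts were 16 higher of 18 and 17 higher of 19, where 26.1% and 29.9% of all genes were higher. With library size scaling 15 and 16 were still higher at 50 mg/kg and 1 was lower in each lineage. Over all genes 1599 of 10568 and 1690 of 10841 were higher with that scaling.

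Another list held partners of CHCHD4, the small Tim chaperones, and *Timm22* and *Timm29*. The small Tim chaperones carry a shorter twin cysteine motif and use the same import route. At 50 mg/kg 8 of the 10 listed genes were higher in CD4+ T cells (median 0.52). In CD8+ T cells 8 of 10 were higher and 1 lower (median 0.81). *Timm10b* led with 1.56 and 1.85, and *Timm8b* rose by 0.87 and 1.38. *Aifm1*, whose protein binds CHCHD4 and supports import, fell by 0.32 in CD8+ T cells (adjusted p = 0.00106). With library size scaling the CD4+ count was 4 higher and 1 lower. Over all genes at 50 mg/kg, 34.7% were higher and 35.8% lower in CD4+ and 37.1% and 36.9% in CD8+ T cells. With library size scaling these were 1599 and 6239 of 10568 genes in CD4+ and 1690 and 6794 of 10841 in CD8+ T cells. Among 32 genes of the small mitoribosomal subunit, the complex of CHCHD1, 27 were higher and 1 lower in each lineage (medians 0.61 and 0.77), and with library size scaling 16 were higher and 6 lower in CD4+ and 20 and 6 in CD8+ T cells. *Mrps18c* rose by 1.18 and 1.32, *Mrps21* by 1.16 in CD4+ and *Mrps24* by 1.29 in CD8+ T cells, whereas *Ptcd3* fell by 0.65 in CD4+ T cells.

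The genes of MICOS and its outer membrane bridge did not move as 1 group. In CD4+ T cells 7 of 10 were higher and 2 lower at 50 mg/kg (median 0.41), and in CD8+ T cells 5 were higher and 1 lower (median 0.31). *Minos1* (Mic10), which shapes cristae junctions, went from 122 ± 3.68 to 248 ± 4.43 CPM in CD4+ T cells (log2 change 1.03 ± 0.047, adjusted p = 4.68e-14) and rose by 1.39 in CD8+ T cells. *2410015M20Rik* (Mic13) rose by 0.95 in CD4+ and 1.21 in CD8+ T cells. *Dnajc11*, of the outer membrane bridge, fell by 0.46 in CD4+ T cells. *Immt* (Mic60), the core subunit, fell by 0.40 in CD4+ and 0.45 in CD8+ T cells. Of 13 inner membrane scaffold and protease genes, 8 were higher and 3 lower in CD4+ and 7 and 4 in CD8+ T cells. For both lists the shares over all genes were 34.7% higher and 35.8% lower in CD4+, and 37.1% and 36.9% in CD8+ T cells. The counts, medians and changes of both lists are with TMM scaling. Library size scaling put the median gene at -0.45 in CD4+ and -0.53 in CD8+ T cells, so the smaller rises depend on the scaling. *Opa1*, the inner membrane fusion GTPase, fell by 0.87 and 0.90, and *Afg3l2*, a protease subunit, fell by 0.51 and 0.66, whereas *Clpp*, the subunit of a matrix protease, rose by 0.48 and 0.68, *Stoml2* rose by 0.51 in CD4+ T cells and *Phb2* by 0.70 in CD8+ T cells.

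Genes of the mitochondrial stress response were mixed, with 7 of 14 tested higher and 2 lower in each lineage at 50 mg/kg (medians 0.32 and 0.20). These values are with TMM scaling, and library size scaling put the median gene at -0.45 in CD4+ and -0.53 in CD8+ T cells. Over all genes 34.7% were higher and 35.8% lower in CD4+, and 37.1% and 36.9% in CD8+ T cells. In CD4+ T cells the serine and folate enzymes *Phgdh* and *Mthfd2* both rose by 0.74, and the chaperones *Hspa9* and *Hspd1* fell by 0.65 and 0.35. In CD8+ T cells the transcription factor *Atf4* rose by 0.58 and the co-chaperone *Hspe1* by 0.71, and *Hspd1* and *Hspa9* fell by 0.64 and 0.58. For the lower dose 5 were higher and 1 lower in CD4+ T cells and 5 higher and 2 lower in CD8+ T cells. The shares over all genes at that dose were 26.1% and 25.6% in CD4+, and 29.9% and 30.3% in CD8+ T cells.

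**Figure D4:**
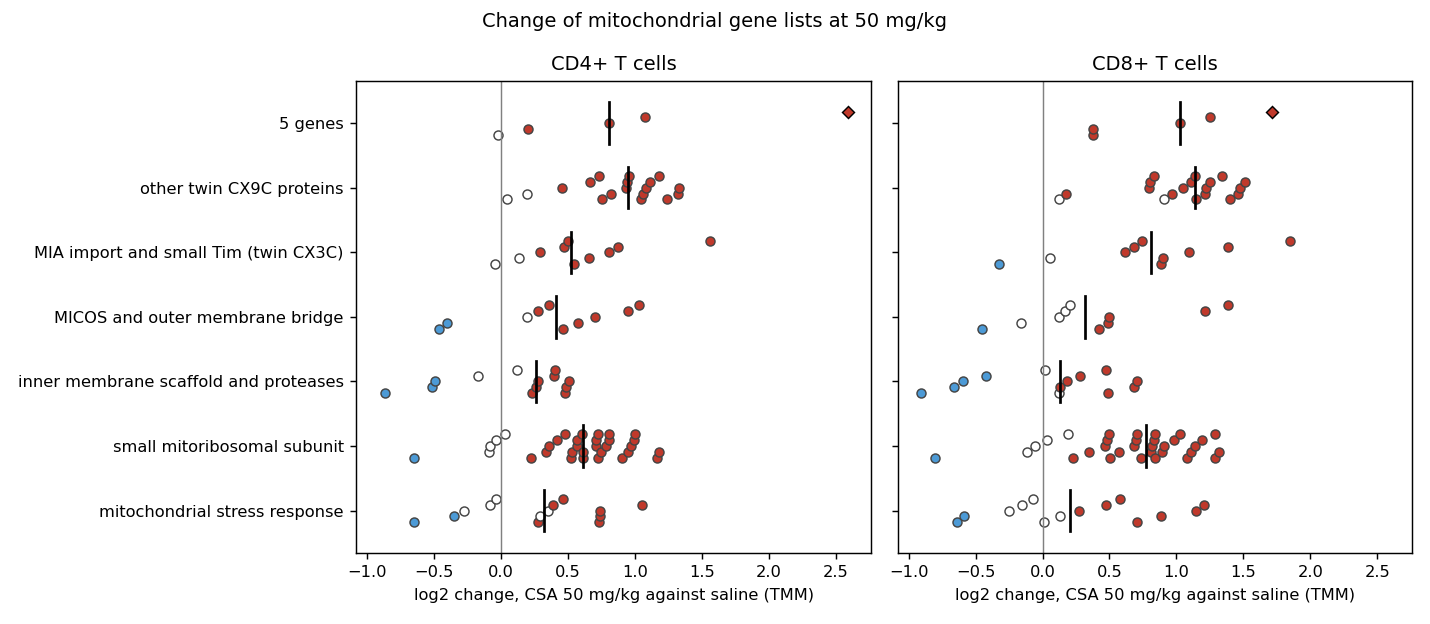
Log2 change at 50 mg/kg against saline with TMM scaling (x axis) of the 5 genes and of 6 lists of mitochondrial genes (rows), in CD4+ (left) and CD8+ (right) T cells. Each point is a gene, red if higher and blue if lower past the test and open if not past it, the diamond is *Chchd10* (not tested) and the vertical bar is the median of the row. *Chchd10* lies to the right of every listed gene in CD4+ T cells, whereas *Timm10b* exceeds it in CD8+ T cells. With library size scaling all values shift to the left and *Chchd3* falls below 0.

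Among genes of a mean of at least 50 CPM, those whose pattern over clusters and doses was most like that of *Chchd10* were not mitochondrial import genes. Genes of lower level, such as *Chchd4* (25.2 CPM), were not ranked, so import genes below that level could not appear. *Chchd10* itself was kept at any level. Over 66 sums of a cluster and a treatment, with log2(CPM + 10), the highest Pearson correlations among 3258 genes were those of *Rbm38* (0.58), *Gm16286* (0.57), *Rpl36al* (0.55), *Nr4a1* (0.53) and *Bax* (0.51). *Rbm38* and *Bax* are known p53 target genes, and *Nr4a1* is an early gene of T cell receptor signaling. *Chchd2* came at place 103 (0.35), *Chchd1* at place 335 (0.26) and *Chchd3* at place 2163 (-0.22). Of 47 genes of the mitochondrial lists above the level needed, 41 had a correlation above 0, with a median of 0.19, against -0.10 over all genes compared. The sums of a treatment share a capture and differ in depth, so these values are a description.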

How the data were processed

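Single-cell RNA libraries (10x 5' chemistry) of splenic T cells were analysed from 3 treatment groups of 3 hashtagged pools, 9 pools in all. The authors deposited raw UMI counts for each gene in each cell, already filtered to the cells they kept. In all 21204 cells the counts added up to the UMI number given in the cell tables. The authors' tables also give, as deposited, each cell's fraction of UMIs from mitochondrial genes. Per the labels, the submitters' processing notes name Cell Ranger, Seurat 3.0.0 and mm10. Group, pool, cluster, hashtag counts, doublet marks and TEa marks were taken from the authors' deposited cell tables. No cell was marked as a doublet, and cells whose second hashtag reached 0.5 of the strongest one (2.86% to 9.02% per group and lineage) were kept. CD8+ cluster numbers were matched to the names of the study by cell numbers.

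Counts were summed per pool without TEa cells and fitted together for all 9 pools in edgeR 4.0.16 under R 4.3.3, after filterByExpr and TMM scaling, with the quasi-likelihood test and Benjamini-Hochberg adjustment over all genes (threshold 0.05). The difference between lineages was tested as the interaction of lineage and dose in a fit blocked by pool. Cluster fits used pools with at least 10 cells and at least 2 pools per group. Levels by cluster are CPM without TMM scaling. Likeness used clusters of at least 20 cells and genes of at least 50 CPM. Within each list, the genes named were the largest 2 rises and falls past the test with a mean of at least 20 CPM. *Chchd6* and *Coa5* are named besides, after their values were seen, as genes that did not pass.

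On simulated data, 62% of changes of 0.5 and 90% of changes of 1 (log2) were recovered in CD4+ T cells at 50 mg/kg among 10447 genes, 77% and 93% in CD8+ T cells among 10722, and 43% and 82% for the difference between the lineages among 10413. Each simulation changed 100 genes at each of these sizes and used the same spread for all genes. Far more genes were called in the data, so these rates need not hold for the fits reported. Alternatives were library size scaling, DESeq2 1.42.0, no filter, only the groups compared, a block of the pool number, non-cycling clusters alone, TEa cells included, cells of at least 2000 UMIs, clusters of at least 30 cells and each pool left out. Leaving out cells of 2 strong hashtags, the saline cluster mix and cells without markers of other types were added after seeing the data. The genes, lists and tests were chosen with earlier results of these data known. Poisson intervals cover counting error only. T cell receptor clonotypes and module scores were not used here.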

Additional observations from a re-analysis of the deposited data

Results flagged for a closer look

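The change of *Chchd2* at 5 mg/kg against saline differed between the lineages, by 0.27 on the log2 scale (CD8+ minus CD4+, SE 0.067, edgeR adjusted p = 0.0222), and was 0.98 in CD8+ and 0.68 in CD4+ T cells. At 50 mg/kg the difference was 0.15 (adjusted p = 0.0961).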

How the results depend on the processing

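Scaling mattered most. With library size scaling the log2 change of *Chchd10* was 2.15 and 0.072 in CD4+ T cells at 50 and 5 mg/kg, and 1.18 and -0.24 in CD8+ T cells. For *Chchd3* it was -0.24 and -0.23 in CD4+ and -0.15 and -0.010 in CD8+ T cells, and for *Chchd4* -0.46 and -0.32, and -0.15 and -0.13. Between 50 and 5 mg/kg, *Chchd3* in CD4+ T cells became -0.0054 and *Chchd4* in CD8+ T cells -0.019. Of the other twin CX9C genes, 1 was lower in each lineage at each dose. *Chchd3* was lower in 2 CD4+ clusters, and in CD8+ clusters *Chchd1* was higher in 3, *Chchd2* in 4, *Chchd3* and *Chchd4* in 0, with *Chchd4* lower in 1. *Chchd1* and *Chchd2* kept their direction and their side of the threshold against saline under every alternative run on the lineage sums.

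Outside the cycling clusters *Chchd10* changed by 2.04 in CD4+ and 1.27 in CD8+ T cells at 50 mg/kg and by 0.31 in CD8+ T cells at 5 mg/kg. There *Chchd3* in CD4+ T cells at 50 mg/kg was 0.073 (adjusted p = 0.438), *Chchd4* 0.052 and -0.023 in CD4+ T cells at 50 and 5 mg/kg and 0.24 in CD8+ T cells at 50 mg/kg (adjusted p = 0.278), and between the doses *Chchd4* in CD4+ was 0.075 and *Chchd1* in CD8+ T cells 0.031. *Chchd4* in CD4+ T cells at 50 mg/kg was 0.0081 with TEa cells and 0.00028 without cells of 2 strong hashtags. *Chchd4* in CD8+ T cells at 5 mg/kg passed the test with no filter (0.28, adjusted p = 0.0248), in the fit of only the groups compared (0.30, adjusted p = 0.0246) and with the replicate block of the pool number (0.29, adjusted p = 0.0420). The pool numbers share only a number, since the correlations of deviations ran from -0.082 to 0.012 in CD4+ and from -0.072 to 0.21 in CD8+ T cells; the block changed no other call. *Chchd1* in CD8+ T cells between the doses was 0.0071 with DESeq2 and 0.011 with no filter. The causes were not tested.

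Leaving out 1 pool gave, against saline, -0.13 to 0.071 and -0.073 to 0.13 for *Chchd4* in CD4+ T cells at 50 and 5 mg/kg, and 0.26 to 0.48 and 0.21 to 0.41 in CD8+ T cells. Between the doses *Chchd4* ran from -0.15 to 0.0036 in CD4+ and from -0.033 to 0.19 in CD8+ T cells, and *Chchd1* from -0.044 to 0.029 in CD8+ and from 0.05 to 0.16 in CD4+ T cells. The lineage difference at 5 mg/kg ran from 0.21 to 0.31 for *Chchd2* and from 0.22 to 0.36 for *Chchd1*. *Chchd4* had few counts, which limits its precision.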
